A study of Mus musculus with 6 samples.

Results

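Radial glia genes were followed across cortical cells of 2 mouse reporter lines that had been left uninjured or had received a physical or an ischemic injury. The members are the 8 genes Fabp7, Fabp5, Dbi, Nes, Pax6, Hopx, Hes5 and Slc1a3. They were chosen by name as genes of radial glia, with earlier results of these data known. All 8 were found among the 22833 genes of the NG2 table, the 21008 genes of the Tbx18 table and the 19679 genes of the table of both naïve libraries. Cells came from the cerebral cortex of mice aged 3 to 4 months with the genotype NG2-Cre-ERT2/Ai14-flx or Tbx18-CreERT2/Ai14-flx. In both lines tamoxifen-activated Cre, driven by the NG2 (Cspg4) or the Tbx18 promoter, switches on the red reporter tdT, and tamoxifen was given 7 days before injury. Physical injury was an intracerebral injection of saline, ischemic injury was an injection of ET-1 (endothelin-1, a vasoconstrictor) with L-NAME (a nitric oxide synthase inhibitor), and cells were taken 3 days later. Live tdT+ cells were sorted, and the pooled cells of several mice made 1 library for each line and condition, 6 in all. NG2 is carried by pericytes and by oligodendrocyte precursor cells (OPCs), so NG2-Cre-ERT2 marks both from the start and cannot by itself tell which of them a tdT+ cell came from.

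With 1 library per condition no difference between conditions could be tested, and clusters had been formed on expression that includes these genes, so values of one cluster beside another are descriptions. Unique molecular identifiers (UMIs), which count captured transcripts, of each cluster were added up within a library and scaled to CPM, the counts per 1e+06 UMIs. The intervals in brackets are exact 95% Poisson intervals of CPM or exact binomial intervals of ratios and shares, and they cover counting error only, not differences between mice. A gene was called higher or lower at 2-fold or more among genes with at least 10 CPM in the higher group, and each count of members is set beside the share of all genes called in the same way. A gene that reached 10 CPM in 1 group alone could be called in that direction only, among members and all genes alike. Libraries held 686 to 4306 cells at medians of 2806 to 9232 UMIs per cell, and any 2 libraries shared 0 to 5 cell barcodes.

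Radial glia are the elongated progenitors that line the ventricles of the developing brain, divide to give neurons and glia, and guide newborn neurons along their processes. Most turn into astrocytes around birth, and cells with a similar set of genes persist as neural stem cells in the adult brain. Several of their characteristic genes are shared with other cells: OPCs, astrocytes, oligodendrocytes and vessel cells each use some of them, so a single member does not define the cell type. Among the members, Fabp7 (brain lipid-binding protein), Fabp5 (epidermal fatty acid-binding protein) and Dbi (diazepam-binding inhibitor, which binds acyl-CoA) carry lipids in the cytoplasm. Nes encodes the intermediate filament nestin, Pax6, Hopx and Hes5 encode nuclear regulators, and Slc1a3 encodes the glutamate transporter GLAST.

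In the mouse genome (GRCm38, GENCODE gene models) the members lie on 7 chromosomes: Dbi at chr1:120113280-120121078, Pax6 at chr2:105668900-105697364, Fabp5 at chr3:10012548-10016607, Nes at chr3:87971078-87980451, Hes5 at chr4:154960923-154962371, Hopx at chr5:77086988-77115121, Fabp7 at chr10:57784881-57788450 and Slc1a3 at chr15:8634124-8710764. Hes5, a repressor and a direct target of Notch signalling, and Fabp7, which is also known as a Notch target in radial glia, were the only members with the core letters of the RBPJ motif, TGGGAA on either strand, in the 250 bases before a RefSeq start (GRCm38.p6, entries for 7 of 8 members, Fabp5 not among them). These are shown because RBPJ is the DNA-binding protein of the Notch pathway, and capitals mark the letters matched. The Hes5 stretch is chr4:154960673-154960922 on the plus strand, with matches that begin 226 and 82 bases before the start. The Fabp7 stretch is chr10:57784673-57784880 on the plus strand, ends where the GENCODE model begins, and has 1 match that begins 249 bases before the RefSeq start.
Hes5: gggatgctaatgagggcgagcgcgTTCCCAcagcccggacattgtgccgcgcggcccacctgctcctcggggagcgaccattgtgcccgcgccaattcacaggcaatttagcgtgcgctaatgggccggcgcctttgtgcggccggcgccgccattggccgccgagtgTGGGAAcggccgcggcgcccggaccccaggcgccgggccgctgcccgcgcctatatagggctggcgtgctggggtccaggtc
Fabp7: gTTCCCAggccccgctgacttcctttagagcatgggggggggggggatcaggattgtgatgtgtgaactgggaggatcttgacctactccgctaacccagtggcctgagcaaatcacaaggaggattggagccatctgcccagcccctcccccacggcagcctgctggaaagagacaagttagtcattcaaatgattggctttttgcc
Of 32851 RefSeq promoters of this length, 7094 (21.6%) hold these letters at least 1 time and 2.77% hold them 2 or more times, so a match is a description of the sequence and not a bound site.

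The NG2 line was clustered by the authors into 11 clusters, which the study names activated pericytes (0), canonical pericytes (1, 2 and the shallow cluster 10), smooth muscle cells (3), mature oligodendrocytes (4), endothelial cells (5), OPCs (6), radial glial precursors or RGPs (7), mesenchymal-like pericytes (8) and microglia (9). The study named cluster 7 partly by its Fabp7 and Dbi, so the high level of this pair there is no independent evidence of the name. Cluster 7 held 17 cells in the naïve, 76 in the physical injury and 438 in the ischemic injury library, with medians of 987, 12792 and 37572.5 UMIs per cell. The naïve cells of cluster 7 were of mixed kind, since 14 of 17 carried at least 1% of their UMIs from markers of another cell class. All 17 Fabp7 counts of these naïve cells lay in 2 cells, which fell with the OPC-like cells when the naïve libraries were clustered by themselves, and the other 15 cells, found there among pericyte-like and mesenchymal-like cells, held 0. The naïve values of cluster 7 are therefore given as levels or counts, and no comparison is drawn from them. Fabp5, Pax6, Hopx and Hes5 had 4, 0, 2 and 8 counts in these 17 cells.

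Cluster 7 was checked against marker lists in the injured libraries. The radial glia and neural stem cell list, 24 further genes, had 17 and 18 genes at 10 CPM or more after physical and ischemic injury, with summed levels of 5194 and 5685 CPM. All 8 genes of the OPC list were also above 10 CPM, summing to 8413 and 5314 CPM, and all 8 genes of the mitosis list were, summing to 994 and 1647 CPM. The 8 pericyte markers summed to only 35.0 and 49.0 CPM, against 36351 and 37322 CPM in pericyte clusters 0, 1 and 2. Cluster 7 thus held radial glia, OPC and mitosis transcripts together, with few pericyte transcripts. The radial glia list includes Ptprz1, which is abundant in OPCs and is counted in the OPC list as well. Vim (vimentin) and Ptprz1 made up much of the radial glia sum after ischemic injury. These sums were not set beside those of the OPC cluster. They therefore do not separate cluster 7 from OPCs. The study also named this cluster by Sox2, Top2a and Cdca8, so its radial glia and mitosis transcripts are no independent evidence of the name.

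Fabp7, which binds long-chain fatty acids and is a classical radial glia marker, had its highest level in cluster 7 of both injured NG2 libraries. Its level in cluster 7 was 570.1 CPM (332 to 913) in the naïve, 2071 CPM (1981 to 2164) in the physical injury and 3157 CPM (3129 to 3186) in the ischemic injury library. In OPC cluster 6 it was 457, 576 and 689 CPM, and in pericyte clusters 0, 1 and 2 it was 10.9, 14.7 and 58.9 CPM. After either injury the order was cluster 7, then cluster 6, then all remaining clusters, and neither of the first steps had overlapping intervals. Below cluster 6 most neighbouring clusters could not be ordered: after ischemic injury the levels ran from 90.2 CPM in cluster 10 down to 16.1 CPM in microglia with overlapping intervals at each step except that from oligodendrocytes (23.6 CPM) to microglia. Of all Fabp7 counts in a library, cluster 7 held 46.2% after physical injury (3.93% of UMIs) and 92.5% after ischemic injury (27.9% of UMIs). Cluster 6 held 58.0% in the naïve and 50.1% in the physical injury library.

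Fabp5, a second fatty acid-binding protein, had its highest level in another cell type. Mature oligodendrocytes held 806 CPM (758 to 856) in the naïve, 997 CPM (974 to 1021) in the physical injury and 2176 CPM (2154 to 2198) in the ischemic injury library. Cluster 7 held 1022 CPM (959 to 1087) after physical injury and 813 CPM (799 to 828) after ischemic injury, against 271 and 477 CPM in cluster 6. The intervals of cluster 7 and oligodendrocytes overlapped after physical injury, and oligodendrocytes were clearly above cluster 7 after ischemic injury. Microglia, in which Fabp5 is a known marker of activated states, held 5.46 CPM (1 count), 50.4 CPM and 334 CPM in the 3 libraries. Processed copies of Fabp5 exist in the mouse genome, and reads shared with them could not be separated here.

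Dbi, whose product carries acyl-CoA and also modulates GABA-A receptors, was broadly expressed and had the same first rank in the injured libraries as Fabp7. Cluster 7 held 1777 CPM (1331 to 2325), 2846 CPM (2741 to 2954) and 3456 CPM (3427 to 3486) in the naïve, physical injury and ischemic injury libraries. Cluster 6 held 1076, 1415 and 1560.3 CPM, oligodendrocytes held 1646, 1143 and 1315 CPM, and pericytes held 193, 183 and 279 CPM. Cluster 7, cluster 6 and oligodendrocytes took the first 3 ranks after either injury with intervals apart, whereas in the naïve library, leaving the 17 cells of cluster 7 aside, oligodendrocytes stood above cluster 6.

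Nes, the nestin gene, is used by radial glia and also by young or remodelling vessels, and here its highest levels were vascular. Endothelial cells held 346, 232 and 281 CPM and mesenchymal-like pericytes held 169, 294 and 320.1 CPM in the naïve, physical injury and ischemic injury libraries. Pericyte clusters 0, 1 and 2 held 153, 154 and 182 CPM. Cluster 7 held 0 counts in the naïve library, where 3 counts would have been 101 CPM, 91.7 CPM (73.7 to 113) after physical injury and 190.4 CPM (183 to 197) after ischemic injury. OPC cluster 6 held 21.1, 11.4 and 32.4 CPM, and oligodendrocytes at most 4.45 CPM. Nes summed over cluster 7 was therefore above OPCs and below endothelial cells and mesenchymal-like pericytes after either injury. After physical injury it lay below endothelial cells and cluster 8 with intervals apart. After ischemic injury its interval in cluster 7 overlapped that of the pericyte clusters 1 and 2 next to it in order, and lay below those of endothelial cells and cluster 8. Other vessel cells lay below cluster 7 in that library. Cluster 7 held 44.3% of the Nes counts at 27.9% of UMIs. Smooth muscle cells held 5.09% at 4.26% and activated pericytes (cluster 0) 5.83% at 4.34%.

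Pax6, a homeodomain factor of dorsal forebrain progenitors, was close to the limit of detection. It was measured by 6 counts (6.19 CPM, 2.27 to 13.5) in cluster 7 after physical injury and 127 counts (8.38 CPM, 6.99 to 9.97) after ischemic injury. Cluster 6 held 3.52, 4.76 and 4.81 CPM in the naïve, physical injury and ischemic injury libraries, from 2, 18 and 19 counts. The intervals of clusters 7 and 6 overlapped in each injured library, and pericytes held 5, 2 and 0 counts. In no whole cluster of the NG2 line did Pax6 reach 10 CPM, so it entered none of the fold counts between clusters or conditions there.

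Hopx, a small homeodomain protein without DNA binding of its own that marks outer radial glia and quiescent stem cells, followed the mural cells in the NG2 line. Pericyte clusters 0, 1 and 2 held 76.9, 58.6 and 63.6 CPM and mesenchymal-like pericytes 135, 68.5 and 40.5 CPM in the naïve, physical injury and ischemic injury libraries. Cluster 7 held 14.4 CPM (7.89 to 24.2) after physical injury and 22.7 CPM (20.4 to 25.2) after ischemic injury. Cluster 6 held 17.6 CPM (10 counts), 3.17 CPM (12 counts) and 3.04 CPM (12 counts). In each injured library Hopx was thus lower in cluster 7 than in each of the 3 pericyte clusters and higher than in cluster 6, although the intervals of clusters 7 and 6 are set by few OPC counts.

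Hes5, the Notch target whose promoter is shown above, was found mainly in clusters 6 and 7. In cluster 6 it stood at 128 CPM (101 to 161) in the naïve, 133 CPM (122 to 146) in the physical injury and 65.3 CPM (57.6 to 73.8) in the ischemic injury library. Cluster 7 held 70.1 CPM (54.4 to 88.9) after physical injury and 77.5 CPM (73.2 to 82.1) after ischemic injury. All remaining clusters lay at or below 3.72 CPM. Cluster 6 was above cluster 7 after physical injury, and their intervals overlapped narrowly after ischemic injury.

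Slc1a3, which clears glutamate in radial glia and astrocytes, was likewise highest in clusters 6 and 7 of the NG2 line. Cluster 6 held 302, 286 and 246 CPM and cluster 7 held 268, 208 and 237 CPM in the naïve, physical injury and ischemic injury libraries. The intervals of the pair overlapped after ischemic injury and cluster 6 was the higher after physical injury. Microglia held 191, 125 and 69.5 CPM and pericytes 46.6, 45.9 and 30.6 CPM, and smooth muscle cells held at most 4.33 CPM.

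**Figure D1:**
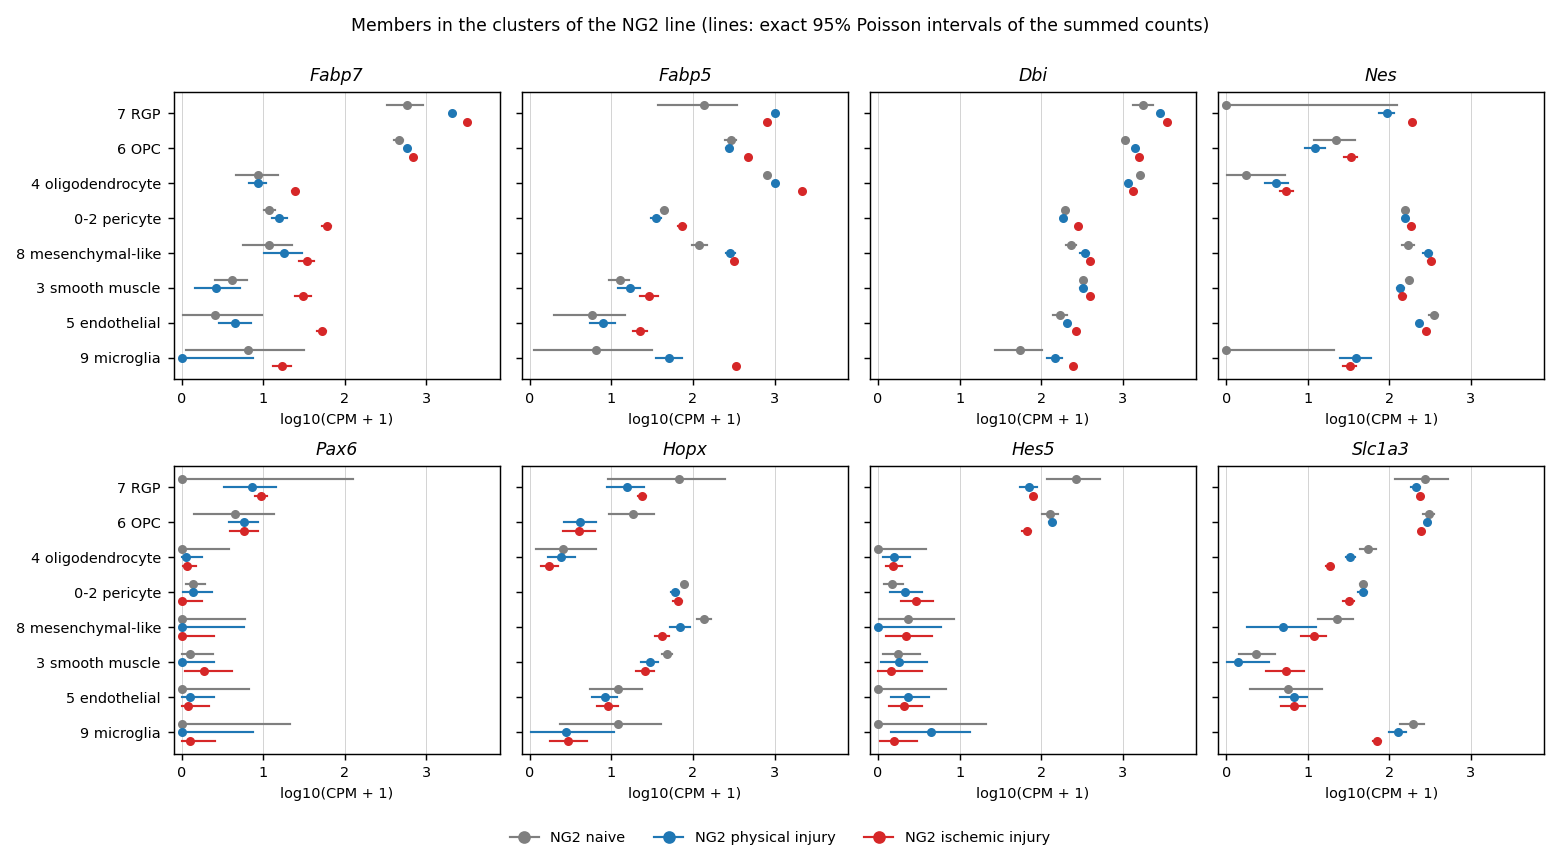
Level of each member in the clusters of the NG2 line, as log10 of CPM plus 1, with points for the naïve (grey), physical injury (blue) and ischemic injury (red) library and lines for exact 95% Poisson intervals. Fabp7 and Dbi have their red and blue points farthest right in cluster 7, Fabp5 in cluster 4 (red), Nes and Hopx in vessel cells, and Hes5 and Slc1a3 in clusters 6 and 7; the wide grey intervals of cluster 7 come from 17 cells.

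The comparison of cluster 7 with OPC cluster 6 asked how far these genes separate the RGPs from the precursor cells that share the same reporter. After physical injury 5 of the 7 members tested were called higher in cluster 7 and 0 lower, where 11.7% of all 10752 genes tested were called higher and 14.6% lower. The 5 were Fabp7 at 3.59-fold (3.38 to 3.82), Fabp5 at 3.77-fold, Dbi at 2.01-fold, Nes at 8.08-fold (5.55 to 11.9) and Hopx at 4.55-fold (1.95 to 10.8). Hes5 and Slc1a3 stood at 0.525 (0.402 to 0.678) and 0.727 of their level in cluster 6. Hes5 thus lay near the fold limit, and the count of 0 lower was not stable. Members were called lower with TMM factors, without cells with markers of another class and as a mean over cells. After ischemic injury 4 of 7 members were called higher and 0 lower, against 10.5% and 18.9% of 10624 genes. These were Fabp7 at 4.58-fold (4.41 to 4.77), Dbi at 2.22-fold, Nes at 5.87-fold (4.92 to 7.07) and Hopx at 7.47-fold (4.22 to 14.6), while Fabp5 stood at 1.71-fold, Hes5 at 1.19-fold (1.04 to 1.36; log2 0.25, but -0.12 as a mean over cells) and Slc1a3 at 0.963-fold (0.896 to 1.03; log2 -0.05, but 0.08 with TMM factors). Fabp7, Dbi, Nes and Hopx were thus called in both libraries and Fabp5 after physical injury. In the main setting the Notch target and the glutamate transporter did not reach 2-fold. Hopx reached the minimum of 10 CPM in cluster 7 alone, so it could be called higher but not lower. Its call after physical injury rested on 14 against 12 counts. At 1000 UMIs per cell its ischemic shares, 1.69% (0.682 to 3.45) and 0.350% (0.00885 to 1.93), overlapped. Dbi after physical injury sat at the fold limit, with a log2 ratio of 1.01 that was 0.87 with trimmed-mean (TMM) factors and 0.79 as a mean over cells. The median log2 ratio of the 7 members was 1.85 after physical and 1.15 after ischemic injury, beside -0.14 and -0.28 over all genes tested.

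The comparison with pericyte clusters 0, 1 and 2 set the same cells beside the other main cell type that NG2-Cre-ERT2 marks. After physical injury 5 of 7 members were called higher in cluster 7 and 1 lower, against 26.4% and 20.2% of all 11079 genes tested, and after ischemic injury the counts were again 5 and 1, against 25.1% and 20.6% of 10733 genes. The same 5 genes were higher in both libraries. Fabp7 was 140.5-fold (112 to 178) and 53.6-fold (47.6 to 60.6) higher, Hes5 62.6-fold (27.3 to 177) and 40.0-fold (21.0 to 87.6), and Fabp5 29.7-fold and 11.3-fold. Dbi was 15.5-fold and 12.4-fold higher and Slc1a3 4.54-fold and 7.73-fold higher. Hopx was the member called lower, at 0.246 (0.133 to 0.419) and 0.357 (0.305 to 0.418) of the pericyte level. Nes stood at 0.595 (0.473 to 0.741) and 1.05-fold (0.970 to 1.13), so nestin summed over cluster 7 was no higher than in pericytes after either injury.

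**Figure D2:**
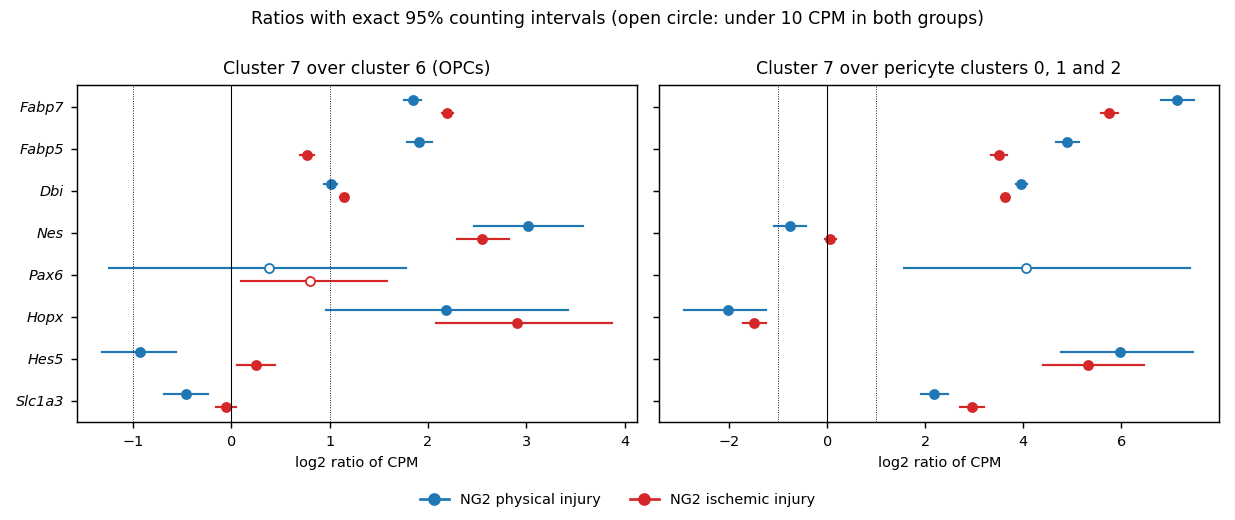
Log2 ratio of each member's CPM in cluster 7 over OPC cluster 6 (left) and over pericyte clusters 0, 1 and 2 (right) after physical (blue) and ischemic (red) injury, with exact 95% counting intervals, dotted lines at 2-fold and open circles where both groups are under 10 CPM. Fabp7, Dbi, Nes and Hopx lie at or right of 2-fold in the left panel in both libraries, and Hopx lies left of 2-fold lower in the right panel.

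OPC cluster 6 had much the same relation to pericytes without injury. In each of the 3 NG2 libraries the 5 members Fabp7, Fabp5, Dbi, Hes5 and Slc1a3 were called higher in cluster 6 than in pericytes and the 2 members Nes and Hopx lower. The shares of all genes called higher were 27.3% in the naïve, 25.3% after physical and 27.0% after ischemic injury, and those called lower were 20.4%, 17.1% and 15.9%. Fabp7 was 42.1-fold (34.1 to 52.1) higher in naïve OPCs than in naïve pericytes, and Hes5 was 274-fold (120 to 770) higher. Nes stood at 0.138, 0.0737 and 0.178 of the pericyte level. Thus 5 of the 8 genes stood above the pericyte level in the OPCs of the uninjured library as well.

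Cells differ in depth, so each cell with 1000 UMIs or more was also thinned to 1000. Shares of cells with at least 1 UMI were then taken. Shallower cells were left out, which kept 52 of 76 cells of cluster 7 after physical and 414 of 438 after ischemic injury. In cluster 7 Fabp7 was seen in 67.3% of 52 cells (52.9 to 79.7) after physical injury and 75.6% of 414 cells (71.2 to 79.7) after ischemic injury (67.1% and 96.8% of all cells unthinned). The shares in cluster 6 were 25.8%, 31.8% and 40.2% in the naïve, physical injury and ischemic injury libraries. In pericytes they were 1.06%, 1.75% and 5.83% (4.48 to 7.44), beside 0%, 0.499% and 4.02% (2.40 to 6.28) in endothelial cells and 0.606%, 0.418% and 4.44% (2.32 to 7.63) in smooth muscle cells, at unthinned medians of 4202, 8622 and 8325 UMIs after ischemic injury. The ischemic pericyte share overlapped those of endothelial and smooth muscle cells. By summed level after ischemic injury, pericyte clusters 0 and 1 held 58.9 CPM (49.6 to 69.6) and 74.7 CPM (58.3 to 94.4). Smooth muscle cells held 29.8 CPM (23.2 to 37.8), below both, and endothelial cells 50.8 CPM (44.6 to 57.7), overlapping cluster 0 only. Cluster 2, at 47.6 CPM (36.7 to 60.8), overlapped both. The source of these transcripts was not tested, and no expression in pericytes is read from them. Nes was seen in 7.69% (2.14 to 18.5) and 17.1% (13.6 to 21.1) of cluster 7 cells, against 12.9% and 15.5% of pericytes and 1.05% and 3.15% of OPCs. Hes5 was seen in 7.69% and 3.86% of cluster 7 cells and 11.2% and 8.04% of OPCs, and Slc1a3 in 11.5% and 17.9% against 24.8% and 24.5%. Dbi reached 84.6% and 92.0% of cluster 7 cells, Fabp5 34.6% and 53.4%. Pax6 was seen in 0 of 52 cells, which allows a share of cells with a UMI of up to 5.77% at 3 cells (exact upper bound 6.85%), and in 0.966% of 414 cells. Hopx was seen in 0 of 52 and 1.69%.

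Within cluster 7 the members varied widely from cell to cell. After ischemic injury a cell held 0 to 23 Fabp7 UMIs among its 1000, with a median of 2, and 101 of 414 cells held none. Dbi had a median of 3 and a highest value of 17, and Fabp5 a median of 1 and a highest value of 10. The remaining 5 members had a median of 0. Cells with at least 3 of the 8 members made up 38.5% (25.3 to 53.0) of cluster 7 after physical injury and 56.5% (51.6 to 61.4) after ischemic injury. In cluster 6 they were 8.25%, 11.9% and 16.8% in the naïve, physical injury and ischemic injury libraries, in oligodendrocytes 2.02%, 1.03% and 1.75%, and in pericytes 0.810%, 0.460% and 1.55%. Cells with several members were thus most frequent in cluster 7, where Dbi, Fabp7 and Fabp5 were the members most often seen. The study named this cluster partly by Fabp7 and Dbi, so this is a description and no independent evidence. The share of single cells with 3 or more moved strongly with the depth chosen.

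**Figure D3:**
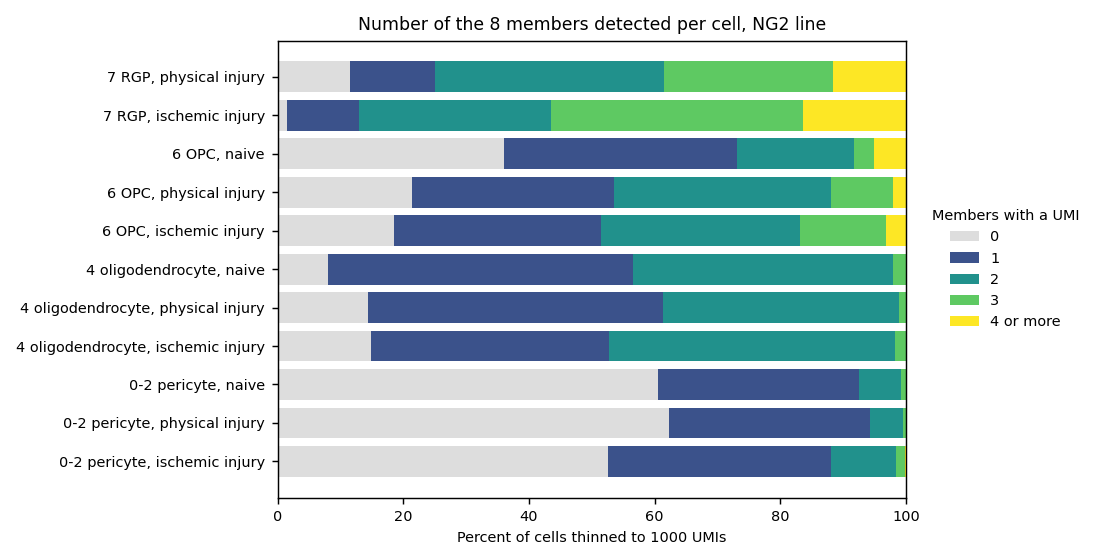
Percent of cells with 0, 1, 2, 3 or at least 4 of the 8 members detected after thinning to 1000 UMIs, for 4 cell groups of the NG2 line by library. The green and yellow segments, 3 or more members, make up 38.5% and 56.5% of cluster 7 after physical and ischemic injury and at most 16.8% of the OPC, oligodendrocyte and pericyte groups.

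Levels inside cluster 7 were then set beside depth and mitosis transcripts. In physical injury cells with under 5000 UMIs Fabp7 stood at 889 CPM (563 to 1333, 23 counts), against 2127 and 2089 CPM in the 2 deeper bins. After ischemic injury the 3 bins held 3683, 3069 and 3159 CPM, so the level was high at every depth there. Nes after ischemic injury stood at 467 CPM (343 to 620, 47 counts) in the 55 cells under 5000 UMIs, against 131 and 192 CPM in the deeper bins. After physical injury its 3 bins held 116 (3 counts), 89.1 and 92.3 CPM. Among ischemic cells at 1000 UMIs, 224 held at least 1 UMI of the 8 mitosis genes and 190 held none. Pax6 was 11.1 CPM (8.94 to 13.5) in the first set and 4.97 CPM (3.42 to 6.98) in the second, a log2 difference of 1.15 (0.57 to 1.77). Hes5 and Hopx were also higher with mitosis transcripts, by log2 0.56 (0.39 to 0.74) and 0.49 (0.16 to 0.82), and Fabp7 differed by 0.02. For Hopx the direction was not stable, since a split of the same cells at their median share of mitosis transcripts gave -0.10 (-0.41 to 0.22). After physical injury the sets held 16 and 36 cells, and Nes was the member more than 2-fold higher with mitosis transcripts, at 145 against 64.1 CPM. Hopx was lower there, at 3.02 (1 count) against 20.8 CPM (13 counts). Fabp7 stood at 2631 against 1814 CPM between the same sets, a log2 difference of 0.54 (0.41 to 0.66). For Fabp7 the split at the median share gave 1.01 (0.88 to 1.14) after physical injury.

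The injured libraries were then set side by side within clusters. In cluster 7, Nes was the only member called, at 2.08-fold (1.68 to 2.59) higher after ischemic than after physical injury, where 2.63% of all genes were called higher. Fabp7 stood at 3157 against 2071 CPM and Fabp5 at 813 against 1022 CPM, both within 2-fold. In cluster 6, Nes was 2.85-fold (2.00 to 4.13) higher (2.46% of genes) and Hes5 stood at 0.490 (0.420 to 0.570) of its physical injury level (0.994% of genes called lower). By summed level nestin was thus higher after ischemic injury in both clusters that carry Hes5. Its shares of cells at 1000 UMIs overlapped between the injuries in both clusters. In cluster 7 they were 7.69% (2.14 to 18.5) after physical and 17.1% (13.6 to 21.1) after ischemic injury. In cluster 6 they were 1.05% (0.217 to 3.03) and 3.15% (1.45 to 5.89). The library of a condition and the mice pooled in it cannot be told apart from the injury.

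Fabp7 and Fabp5 were called higher after ischemic injury in each of the 4 further NG2 cell groups compared. Fabp7 was 3.14-fold (2.35 to 4.26) higher in oligodendrocytes, 14.4-fold (8.28 to 27.5) in endothelial cells and 3.99-fold (3.10 to 5.19) in pericytes, and in microglia 58 counts stood against 0, at least 3.09-fold against a floor of 3 counts. Fabp5 was 2.18-fold (2.13 to 2.24), 3.18-fold, 2.09-fold and 6.63-fold (4.59 to 9.94) higher in the same 4 groups. The shares of all genes called higher were 2.64% in oligodendrocytes, 1.08% in endothelial cells, 0.947% in pericytes and 6.62% in microglia. Smooth muscle cells and mesenchymal-like pericytes were not among the groups compared and are given as levels. In smooth muscle cells Fabp7 stood at 3.09, 1.65 and 29.8 CPM and in mesenchymal-like pericytes at 10.8, 17.1 and 33.2 CPM in the naïve, physical injury and ischemic injury libraries. The ischemic injury library held cluster 7 with 27.9% of its UMIs, against 3.93% after physical injury. Of the Fabp5 counts of the ischemic injury library, 69.3% lay in oligodendrocytes and 22.7% in cluster 7. The part of free RNA from cluster 7 or from oligodendrocytes in these values was not tested.

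Against the naïve library fewer pairs of member and cell group were called in the NG2 line. After physical injury Hopx in OPCs was the only one, at 0.180 (0.0714 to 0.466) of the naïve level from 12 and 10 counts, where 5.19% of all genes were called lower. After ischemic injury Hopx in OPCs stood at 0.173 (5.45%), and Slc1a3 in oligodendrocytes at 0.321 (0.247 to 0.422) of the naïve level (2.49%). Fabp7 and Fabp5 in oligodendrocytes were 3.09-fold (1.66 to 6.49) and 2.70-fold higher (5.93%), and in endothelial cells they stood at 32.4-fold (5.76 to 1286, 1 naïve count) and 4.57-fold (1.52 to 22.5, 3 naïve counts), where 4.54% of genes were called higher. In pericytes Fabp7 was 5.42-fold (4.40 to 6.70) higher (0.753%). In OPCs Fabp7 itself stood at 457, 576 and 689 CPM and was not called.

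The Tbx18 line, whose Cre marks mural cells and fibroblasts but not OPCs, gave a reference without a cluster named OPCs. Its clusters are named endothelial cells (0), smooth muscle cells (1), canonical pericytes (2), microglia (3), vascular-genic pericytes (4), fibroblasts (5) and glial precursors (6). Endothelial cells numbered 1788 after physical and 1488 after ischemic injury, and microglia 318 and 265. Cluster 6 held 22 cells in the injured libraries together. In these cells 7 of 8 members were called higher than in clusters 0 to 5 and 1 lower, where 24.4% and 27.4% of all 11025 genes tested were called. Fabp7 stood at 208 against 1.04 CPM, Fabp5 at 926 against 57.9 CPM, Dbi at 1559 against 237 CPM, Hopx at 129 against 14.3 CPM and Slc1a3 at 1616 against 33.7 CPM. Hes5 (33 counts) and Pax6 (14 counts) stood at 104 and 44.1 CPM, against 0.12 and 0.10 CPM. Nes had 0 counts, where 3 counts would be 9.45 CPM, against 146.5 CPM in the other clusters, so it was at least 15.5-fold lower.

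These 22 cells were not of 1 kind, and a split made after their values were seen is given without a test. In 11 cells oligodendrocyte markers outnumbered those of a list of 10 astrocyte genes, in 10 cells the astrocyte genes were the more abundant, and in 1 they were equal. The 11 cells were 9 from the physical and 2 from the ischemic injury library, and the 10 cells were 4 and 6. The sets thus differ in library as well. The 10 astrocyte-rich cells held Slc1a3 at 4210 CPM (3845 to 4601), Fabp7 at 544 CPM, Hopx at 345 CPM, Hes5 at 285 CPM and Pax6 at 121 CPM. In the 11 oligodendrocyte-rich cells Fabp7, Pax6 and Hes5 had 0 counts, Hopx had 1 count and Slc1a3 stood at 77.7 CPM, while Fabp5 stood at 1119 CPM and Dbi at 1388 CPM. Within this cluster Fabp7, Pax6, Hopx, Hes5 and Slc1a3 therefore lay almost wholly in the astrocyte-rich cells, and Nes had no count in either set.

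**Figure D4:**
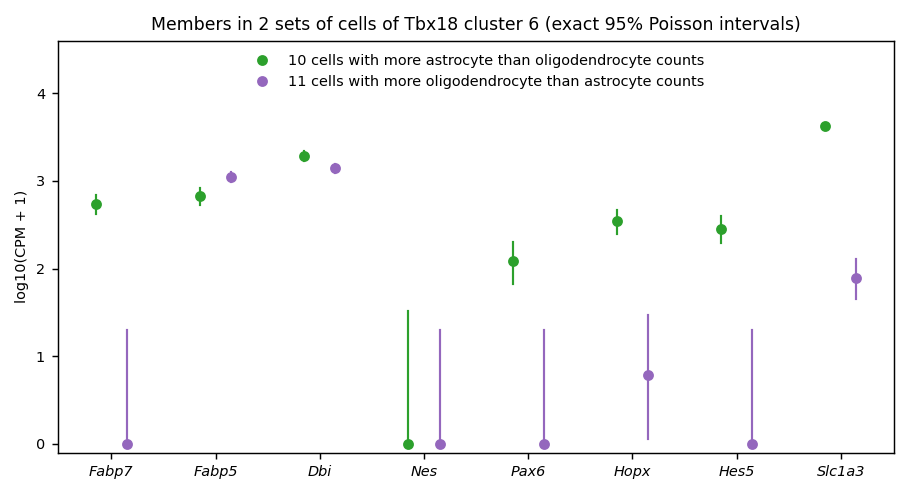
Level of each member, as log10 of CPM plus 1 with exact 95% Poisson intervals, in the 10 cells of Tbx18 cluster 6 with more astrocyte than oligodendrocyte marker counts (green) and the 11 cells with the reverse (purple). Fabp7, Pax6, Hopx, Hes5 and Slc1a3 are higher in the green set with intervals apart, Dbi and Fabp5 are high in both, and Nes is at 0 in both.

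Slc1a3 had its highest level of the Tbx18 clusters 0 to 5 in fibroblasts. They held 3750.2 CPM (5 cells) in the naïve, 1558 CPM (116 cells) in the physical injury and 1675 CPM (10 cells) in the ischemic injury library. In Tbx18 pericytes Slc1a3 stood at 45.7, 17.5 and 11.4 CPM. Hopx was not confined to mural cells in this line. Microglia held 11.1%, 34.5% and 68.5% of its counts in the naïve, physical injury and ischemic injury libraries. Their shares of UMIs were 3.57%, 13.2% and 20.3%, and the naïve value rested on 19 counts. Canonical pericytes held 67.3%, 22.1% and 10% of Hopx counts at 47.1%, 4.92% and 1.74% of UMIs.

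**Figure D5:**
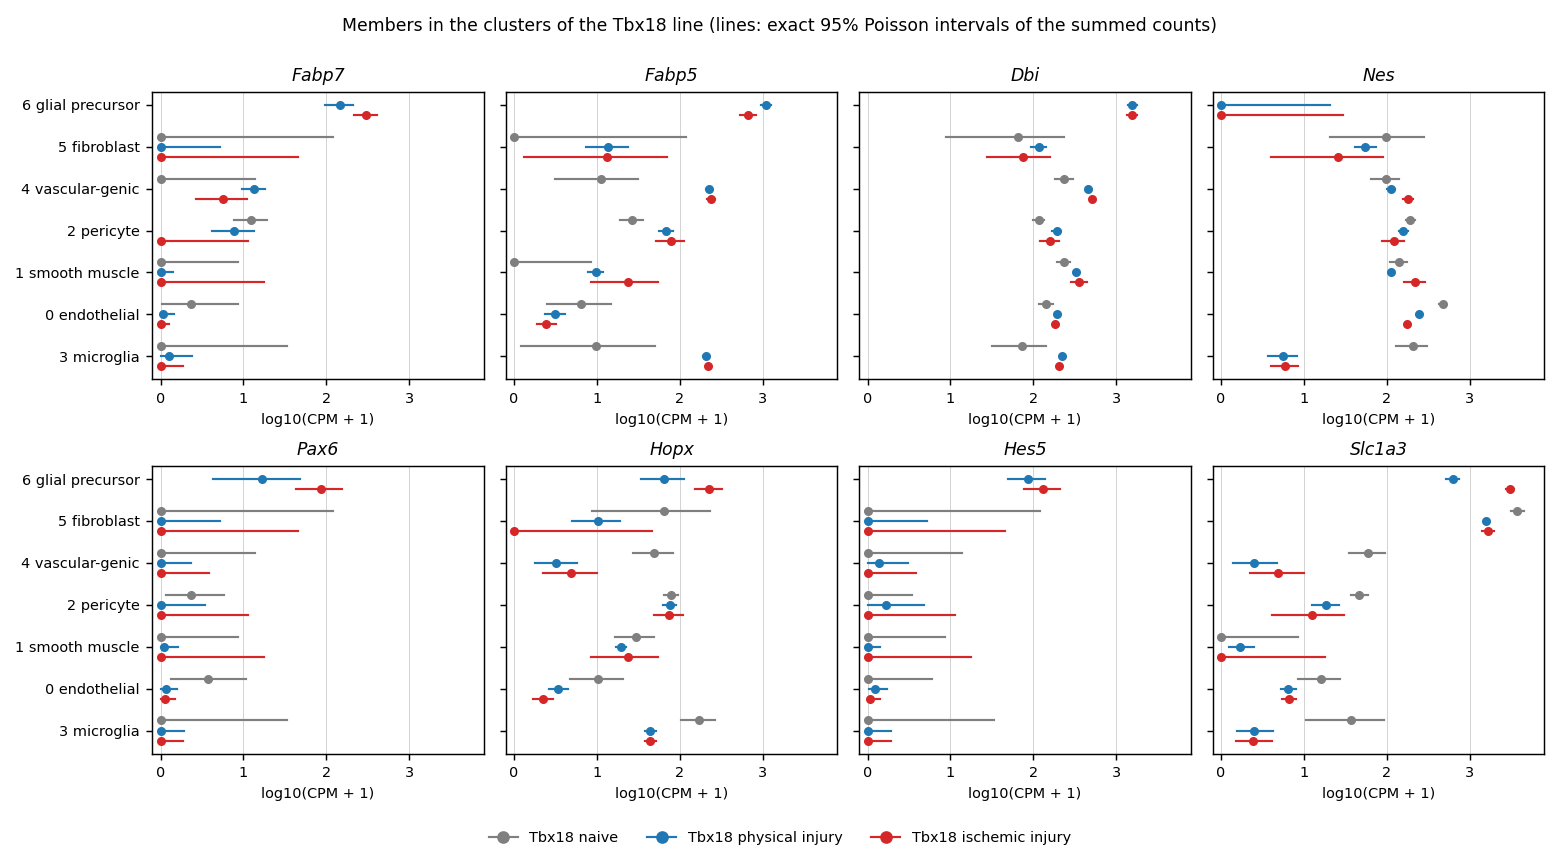
Level of each member in the clusters of the Tbx18 line, as log10 of CPM plus 1, by library (grey naïve, blue physical injury, red ischemic injury) with exact 95% Poisson intervals. Cluster 6, with 14 and 8 injured cells, has the highest points for Fabp7, Fabp5, Dbi, Pax6 and Hes5, fibroblasts have the highest Slc1a3 of the naïve and physical injury libraries, and Nes is at 0 in cluster 6.

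Between conditions the members of the Tbx18 line were called in few pairs, several of which rested on few counts. From physical to ischemic injury, Fabp5 in smooth muscle cells was 2.63-fold (0.831 to 6.42, 5 ischemic counts) higher, where 12.7% of genes were called higher. Fabp7 in vascular-genic pericytes stood at 0.370 (0.127 to 0.892, 6 against 34 counts), where 12% were called lower, and Nes in fibroblasts at 0.451 (0.0531 to 1.72, 2 counts), where 20.4% were. Against the naïve library, endothelial Nes stood at 172 against 471 CPM after ischemic injury, a ratio of 0.366 (0.327 to 0.410), and endothelial Slc1a3 at 0.378 (0.200 to 0.788), with 7.61% of genes called lower. After physical injury endothelial Slc1a3 stood at 0.367 (8.35%) and endothelial Nes at 245 CPM, not called. The naïve endothelial reference was of mixed kind. Without cells with markers of another class, 84 of its 159 cells were left, against 1778 of 1788 after physical and 1487 of 1488 after ischemic injury. Its Slc1a3 level rested on 11 counts. Fabp5 in smooth muscle cells had 5 ischemic counts against 0 (12.9% of genes called higher). In pericytes Fabp5 was 2.64-fold (1.80 to 3.94) higher after physical and 3.00-fold (1.76 to 5.04) after ischemic injury, where 9.42% and 11.8% of genes were called higher. Slc1a3 in pericytes stood at 0.383 and 0.248 of the naïve level, and Fabp7 had 0 ischemic counts against 17, where 5.47% and 9.32% of genes were called lower. At a floor of 3 counts this Fabp7 difference is at least 1.34-fold, which does not reach the 2-fold limit.

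The wider lists showed which other genes of the same pathways went with cluster 7 against cluster 6. Of the radial glia and neural stem cell list, 5 of 17 genes tested were called higher and 2 lower after physical injury, and 5 of 18 higher and 4 lower after ischemic injury, where 11.7% and 14.6% of all genes were called after physical and 10.5% and 18.9% after ischemic injury. The 5 were Vim (vimentin, an intermediate filament), Tnc (tenascin-C of the matrix), Sox9 (a progenitor and astrocyte factor), Gfap (an astrocyte filament) and Lhx2 in both libraries. Vim stood at 2507 against 214 CPM after ischemic injury and Tnc at 261 against 47.1 CPM. Sox2, the factor that marks neural stem cells and glia, stood at 320.4 against 287 CPM and was not called, and Ptprz1, a receptor phosphatase abundant in OPCs, stood at 1565 against 3131 CPM. The median log2 ratio of this list was -0.14 and 0.09, beside -0.14 and -0.28 over all genes.

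The remaining lists are given by their counts, beside the same shares of all genes (11.7% higher and 14.6% lower after physical, 10.5% and 18.9% after ischemic injury). Of the Notch pathway list, 0 of 9 genes were called higher and 2 lower after either injury, the 2 being Dll1 and Nrarp after physical and Dll1 and Hey2 after ischemic injury. Notch1 stood at 141 against 102 CPM and Rbpj, which encodes the DNA-binding partner of Notch, at 50.9 against 62.8 CPM after ischemic injury. Of the other fatty acid- and acyl-CoA-binding proteins, 0 of 5 genes tested after physical and 0 of 4 after ischemic injury were called either way, with Fabp3 at 12.3 against 13.4 CPM and Acbd6 at 91.7 against 103 CPM after ischemic injury. Of the astrocyte list, 1 of 6 genes was called higher and 3 lower after physical injury, and 2 of 7 higher and 5 lower after ischemic injury, Slc1a2 among the lower at 84.1 against 225 CPM. All 8 mitosis genes were called higher in cluster 7 in both libraries, and 2 and 5 of 8 OPC genes and 6 and 7 of 7 committed OPC genes lower.

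The genes most like Fabp7 and Hes5 across the series were found by Pearson correlation of log2(CPM + 1) over 47 cluster-by-library groups with at least 20 cells, among 15149 genes. These groups share libraries and cell types, so the values are descriptions. The 5 nearest to Fabp7 were Bex2 (0.88), Sox11 (0.88), Stk32a (0.87), Ptprz1 (0.87) and Lhfpl3 (0.86), of which Bex2 and Sox11 were highest in cluster 7 and the other 3 in cluster 6. The 5 nearest to Hes5 were Rasgrf1, Tmem179, Disp3, Car8 and Gm17750, at 0.96 each, all highest in cluster 6 but Car8. Among the members themselves the values with Fabp7 were 0.80 for Hes5, 0.72 for Pax6, 0.69 for Dbi, 0.55 for Fabp5, 0.47 for Slc1a3, 0.02 for Hopx and -0.06 for Nes. Nes and Hopx thus had the values nearest to 0.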

How the data were processed

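The libraries were made with the 10x Genomics 3' chemistry, which keeps strand, from FAC-sorted tdT+/DAPI- cells. Each deposited table gives UMI counts of genes by cells; the authors produced them with Cell Ranger (7.0.0 in the submitters' processing notes, one end of a range in the study's methods) on the mm10 genome, then filtered and integrated the cells in Seurat in 3 combinations of libraries. The authors also deposited the percent of mitochondrial transcripts per cell and a cluster number from each integrated object, and the latter gave the cell groups. Naïve cells were the same in both of their tables, with 0 member values that differed. Doublet removal is not given in the sources used here.

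No deposited cell was dropped from the summed counts, and cells below the thinned depth were left out of the thinned shares. Members were totalled by cluster within each library, and cells were thinned to 1000 UMIs with seed 1. The tools were pandas 2.3.3, scipy 1.17.1 and numpy 2.4.6 under Python 3.11.15, matplotlib 3.10.9 for plots, and edgeR 4.0.16 in R 4.3.3 for TMM factors only. The calling rule was run on simulated counts with 200 genes changed 3-fold or 4-fold. Changes of 2-fold and genes near the minimum of 10 CPM were not simulated. At 3-fold, cluster 7 against 6 gave 197 of the 200 after physical and 200 after ischemic injury. Of the unchanged genes tested, 150 of 10109 and 0 of 10083 were called. Values are given for all members, for up to 4 genes of a list by CPM in NG2 cluster 7 after ischemic injury, for the 5 genes most like Fabp7 and Hes5, and for small called counts, whose genes were chosen after their values were seen. Members and lists were chosen with earlier results of these data known.

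Alternatives were TMM factors, totals without mitochondrial and ribosomal protein genes, the mean of per-cell CPM, folds of 1.5 and 3, minima of 0 and 50 CPM, cells within 2 SD of the mean genes and UMIs of their library with at most 12% mitochondrial transcripts, cells without 1% or more markers of another class, other pericyte clusters, 500 and 3000 UMIs, another seed and, added after seeing the data, the mean of 20 thinnings. The 2 SD setting left out 18 of 76 cells of NG2 cluster 7 after physical and 164 of 438 after ischemic injury. Of 103 naïve NG2 oligodendrocytes it kept 19.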

Additional observations from a re-analysis of the deposited data

Results flagged for a closer look

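These values were noted because the libraries of one contrast lay apart in opposite directions in different cell types or lines, and the differences were not tested, since each condition was 1 library. On the log2 scale, Fabp7 of the NG2 line was higher after ischemic than after physical injury by 1.65 in oligodendrocytes, 3.85 in endothelial cells, at least 1.63 in microglia (58 counts against 0) and 2.00 in pericytes, and the ratio was -1.43 in Tbx18 vascular-genic pericytes (6 against 34 counts). Against the naïve library the ischemic Fabp7 ratio was 1.63 in NG2 oligodendrocytes, 5.02 in NG2 endothelial cells and 2.44 in NG2 pericytes, and in Tbx18 pericytes it was -0.43 at the bound set by a floor of 3 counts (0 against 17 counts). The ischemic over physical injury ratio of Nes was 1.05 in NG2 cluster 7 and 1.51 in NG2 cluster 6, and -1.15 in Tbx18 fibroblasts (2 against 47 counts).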

How the results depend on the processing

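No paired analysis was possible because each condition was 1 library, which also left no replicate to leave out. No ratio that was called in the main setting changed direction under an alternative. In the mitosis split, Fabp5 after physical injury was under 2-fold in the main setting and turned to more than 2-fold the other way. Where a fold limit or a CPM minimum changed a count, the limit itself is the cause, and elsewhere the cause was not tested. Members lower in cluster 7 than in cluster 6 after physical injury were 0, and 1 with TMM factors, without cells with markers of another class or at 1.5-fold, and 2 with the mean over cells. Members lower than in pericytes were 1 after each injury, and 2 after physical injury at 1.5-fold and 0 after ischemic injury at 3-fold. Pairs of member and cluster higher in the NG2 line after ischemic than physical injury were 10, and 6 at 50 CPM or at 3-fold. Those lower were 1, and 0 without mitochondrial and ribosomal genes or at 3-fold, 2 within 2 SD, 4 with no minimum and 3 at 1.5-fold. For NG2 physical injury against naïve, 0 higher became 3 within 2 SD and 7 with no minimum, and 1 lower became 2 with the mean over cells, 0 at 50 CPM and 4 at 1.5-fold. For NG2 ischemic injury against naïve, 5 higher became 8 within 2 SD, 11 with no minimum, 3 at 50 CPM and 10 at 1.5-fold, and 2 lower became 1 within 2 SD or at 50 CPM and 4 with no minimum or at 1.5-fold. For Tbx18 ischemic against physical injury, 1 higher became 2 within 2 SD or with no minimum, 0 at 50 CPM or 3-fold and 3 at 1.5-fold, and 2 lower became 1 within 2 SD or at 50 CPM, 12 with no minimum, 4 at 1.5-fold and 0 at 3-fold. For Tbx18 physical injury against naïve, 1 higher became 2 with TMM factors or at 1.5-fold, 6 with no minimum and 0 at 3-fold, and 2 lower became 4 with the mean over cells, 7 with no minimum, 0 at 50 CPM or 3-fold and 5 at 1.5-fold. For Tbx18 ischemic injury against naïve, 2 higher became 1 at 50 CPM or 3-fold and 4 at 1.5-fold, and 4 lower became 9 with no minimum, 1 at 50 CPM and 2 at 3-fold. At 500 and 3000 UMIs per cell, cells with 3 or more members were 24.0% and 92.9% of cluster 7 after ischemic and 17.1% and 93.6% after physical injury. In cluster 6 they were 2% and 41.8% in the naïve, 5.32% and 48.3% in the physical and 4.42% and 57.9% in the ischemic injury library, and in pericytes 0.123% and 7.94%, 0.0906% and 8.79%, and 0.0923% and 16.2%. Another seed gave 19.2% in cluster 6 after physical injury and 0.468% in naïve pericytes, and the mean of 20 thinnings, chosen after seeing the data, gave 14.2% and 0.591%. Shares lower in cluster 7 than in cluster 6 with intervals apart were 0, and 1 at 500 UMIs after physical and 1 at 3000 UMIs after ischemic injury. With mitosis transcripts split at their median share, members 2-fold apart were 4 in place of 2 after physical and 2 in place of 1 after ischemic injury, and Fabp5 after physical injury turned from a log2 difference of -0.91 to 1.49, Hopx after ischemic injury from 0.49 to -0.10, Slc1a3 after physical injury from -0.03 to 0.97 and after ischemic injury from -0.06 to 0.11, and ischemic Fabp5 and Fabp7 from 0.08 to -0.06 and from 0.02 to -0.02. Pax6 in all NG2 clusters and Hopx in OPCs were limited by depth.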
